A study of Homo sapiens and Mus musculus with 13 samples.

Results

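The 8 genes described here encode the DNA methyltransferases (Dnmt1, Dnmt3a, Dnmt3b), the TET dioxygenases (Tet1, Tet2, Tet3) and the NADP-dependent isocitrate dehydrogenases (Idh1, Idh2). They were found by symbol among the 37991 rows of the mouse gene tables, and each symbol had a single row. The cells are mouse haematopoietic progenitors immortalized by HOXB8 and kept in stem cell factor and 1 µM beta-estradiol. An NPM1c-GFP knock-in, the leukaemia form of nucleophosmin that is held in the cytoplasm, was made in them with CRISPR/Cas9, and 3 single-cell clones titled 12, 18 and 4 were sequenced, 1 library each. The parental line, labelled wild type and immortalized in the same way, gave 2 libraries, which the labels do not describe as separate cultures. A clone also carries whatever set its founder cell apart from the bulk line, and this cannot be told apart from NPM1c. The column headers number the clones 4, 12 and 18 in the libraries titled 12, 18 and 4, and the titles are used here. The series' other 8 libraries are from the human leukaemia line OCI-AML3 and are not used here.

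DNMT3A and DNMT3B place methyl groups on unmethylated CpG sites, and DNMT1 copies the pattern onto the new strand after replication. TET enzymes oxidize methylcytosine, using 2-oxoglutarate as cosubstrate, which leads to loss of the mark. IDH1 in the cytosol and IDH2 in mitochondria make 2-oxoglutarate, while their leukaemia mutants make 2-hydroxyglutarate, which inhibits TET enzymes. In human acute myeloid leukaemia, DNMT3A, TET2, IDH1 and IDH2 are often mutated together with NPM1c. Whether their mouse counterparts change in level when NPM1c is introduced is what the comparison of clones with parental libraries addresses.

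Each value is a normalized read count, the reads of a gene divided by the library's size factor. Sequencing depth was 7358340 to 12235174 reads in the clones, against 9728260 in parental replicate 1 and 99557475 in parental replicate 2. The Npm1 level averaged 14530 ± 535 in the clones (SD, n = 3), against 25705 ± 13.7 in the parental libraries (SD, n = 2; adjusted p = 0.000533, limma). This row does not separate mutant from normal transcripts, and whether reads of the knock-in allele were counted in it was not tested. Of the progenitor markers, Kit, Cd34, Ptprc, Myb, Flt3, Cebpa and Runx1 were detected in every library. Their summed level was 56992 to 69929 in the clones and 51294 to 55750 in the parental libraries. Ptprc and Myb rose (log2 0.57 and 0.34, adjusted p = 0.0432 and 0.0412, limma), Flt3 fell (log2 -0.53, adjusted p = 0.0117, limma), and 4 did not pass. Over all genes tested 7.51% rose and 8.49% fell. Mast cell and basophil markers summed to 4912 to 7569 in the clones and 1257 to 3490 in the parental libraries. Of the 8 such markers 5 were abundant enough to test, and all 5 were higher in every clone than in both parental libraries. This order was found in 24.5% of all genes tested. Of the 5, 3 passed, while Cpa3 and Hdc did not (adjusted p = 0.225 and 0.139, limma). Cpa3 was at 2748, 3139 and 4388 in clones 12, 18 and 4, against 2450 and 386 in parental replicates 1 and 2. Neutrophil granule markers summed to 13242 to 27370 in the clones and 46738 to 53326 in the parental libraries. Of the 4 tested, 2 fell, where 8.49% of all genes tested did. Mpo, at 42873 and 38610 in parental replicates 1 and 2, was lower in every clone but did not pass (adjusted p = 0.0629, limma). Ctsg overlapped between the groups (log2 1.27, adjusted p = 0.382, limma). It was at 1422, 1714 and 1943 in clones 12, 18 and 4, against 1866 and 260 in parental replicates 1 and 2. Monocyte and macrophage markers summed to 15710 to 26382 in the clones and 26699 to 29373 in the parental libraries. Clone 4, the highest clone, was just below parental replicate 2. Of the 6 tested, 0 fell, 1 rose and 5 did not pass, where 8.49% of all genes tested fell and 7.51% rose. F13a1 and Ccr2, the most abundant of them, were lower in every clone but did not pass (adjusted p = 0.199 and 0.192, limma). The macrophage gene Emr1 rose (log2 2.01, adjusted p = 0.00269, limma). B cell markers summed to 735.5 to 1013 in the clones and 1400 to 1465 in the parental libraries. Of the 4 rows tested 2 fell, where 8.49% of all genes tested did. Ebf1 has a row that fell (ENSMUSG00000057098, log2 -0.65, adjusted p = 0.0240, limma). Another Ebf1 row overlapped between the groups (ENSMUSG00000078561, log2 -0.56, adjusted p = 0.654, limma). For progenitor, mast cell, neutrophil, monocyte and B cell markers the sums did not overlap between the groups. Markers of T and NK cells, which overlapped, summed to 65.6 to 170 in the clones and 129 to 130 in the parental libraries, with no read of Cd3e, Cd3g or Ncr1. The part of these lineage genes in the results below was not tested. Fewer cells of a type and less RNA per cell cannot be told apart in such bulk libraries.

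Of the 8 genes, 1 passed the test between clones and parental libraries: Dnmt3b was lower in the clones. All 8 were among the 13132 genes with a mean of at least 10, and of these genes 16.0% were called at an adjusted p under 0.05 by limma (8.49% lower and 7.51% higher), so 1 call in 8 is close to that background. In 4 genes (Dnmt3a, Dnmt3b, Tet2, Idh2) every clone was below both parental libraries, and in 1 (Tet3) every clone was above them. Groups that do not overlap were found in 50.2% of all genes tested, 25.8% with the clones lower and 24.5% with the clones higher. The median log2 fold change of the 8 genes was -0.25, against 0.01 over all genes tested. An unadjusted p under 0.05 was reached by 4 of the 8, against 31.1% of all genes tested.

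**Figure D1:**
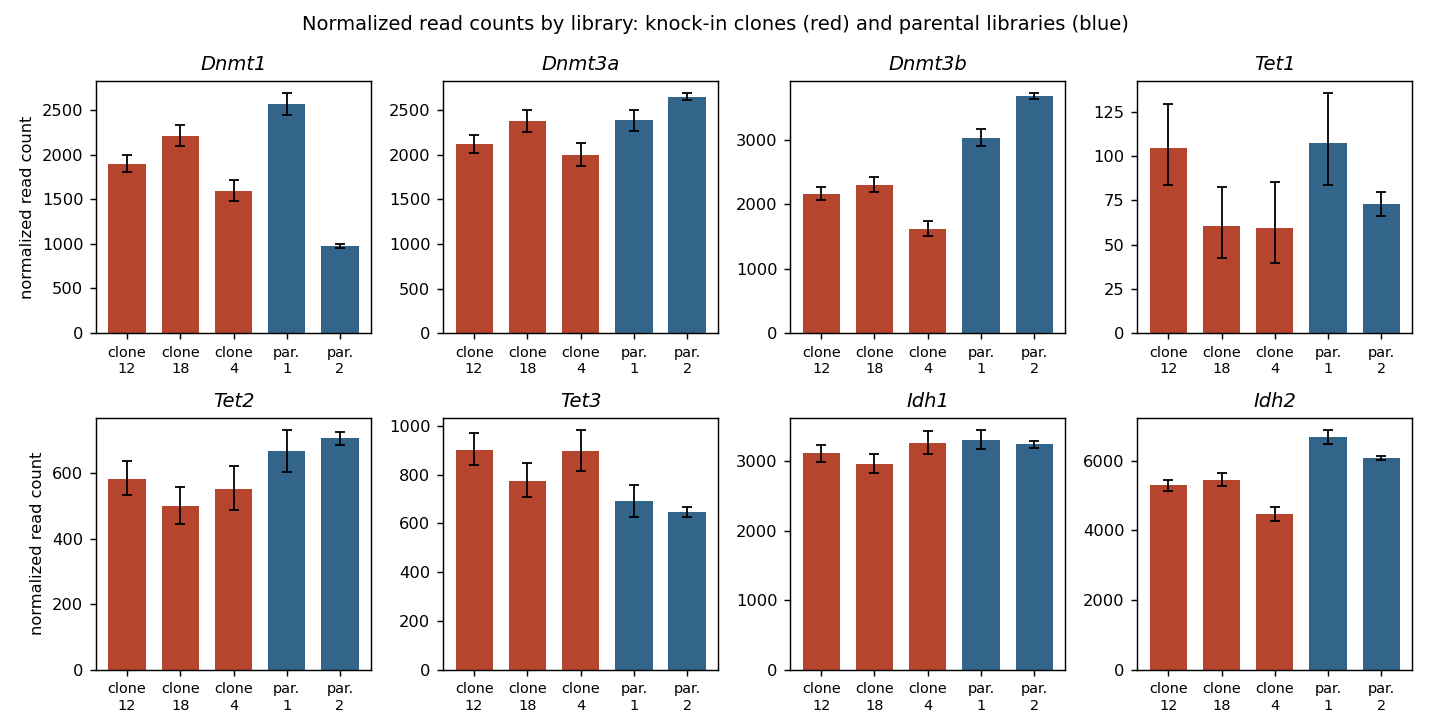
Normalized read count (vertical axes, from 0) of each of the 8 genes in the 3 knock-in clones (red) and the 2 parental libraries (blue, par.); whiskers are exact 95% Poisson intervals of the reads and cover counting error only. Every clone is below both parental libraries in Dnmt3b, and parental replicate 2 has the lowest Dnmt1 bar, 972, against 2562 in parental replicate 1.

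Dnmt3b, a de novo methyltransferase (ENSMUSG00000027478), had normalized read counts of 2159, 2302 and 1621 in clones 12, 18 and 4, against 3034 and 3679 in parental replicates 1 and 2. The highest clone was thus below the lower parental library, and clone 4 was the lowest of all. The level was 1.67-fold lower in the clones on the log2(value + 1) scale (log2 -0.74, 95% interval -1.13 to -0.34, SE 0.167, adjusted p = 0.0261, limma). The call was lost without clone 12 (log2 -0.79, adjusted p = 0.0672) and without parental replicate 2 (log2 -0.60, adjusted p = 0.133), where the direction was unchanged. It was also lost when every gene with a read was tested (adjusted p = 0.0728) and when limma ran without a trend or robust moderation (adjusted p = 0.0856).

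Dnmt3a, the other de novo methyltransferase (ENSMUSG00000020661), was at 2119, 2381 and 2000 in clones 12, 18 and 4, against 2388 and 2656 in the parental libraries. Clone 18 and parental replicate 1 were nearly equal. The difference did not pass (log2 -0.22, 95% interval -0.48 to 0.03, adjusted p = 0.216, limma). That interval holds a fall smaller than that of Dnmt3b as well as no change.

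Dnmt1, the maintenance methyltransferase (ENSMUSG00000004099), was at 1897, 2210 and 1594 in clones 12, 18 and 4, between the parental libraries at 2562 and 972. The parental libraries were 2.64-fold apart. The lower one rested on 6366 reads, with a 95% counting interval of 948 to 996, so counting error is far smaller than the gap. With both parental libraries the log2 fold change was 0.26 with an interval of -0.85 to 1.36 (adjusted p = 0.729, limma). Against parental replicate 1 alone it was -0.44 (95% interval -0.88 to -0.0037, adjusted p = 0.204), and against parental replicate 2 alone 0.95 (95% interval 0.51 to 1.40, adjusted p = 0.0206). No direction is therefore given for Dnmt1.

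**Figure D2:**
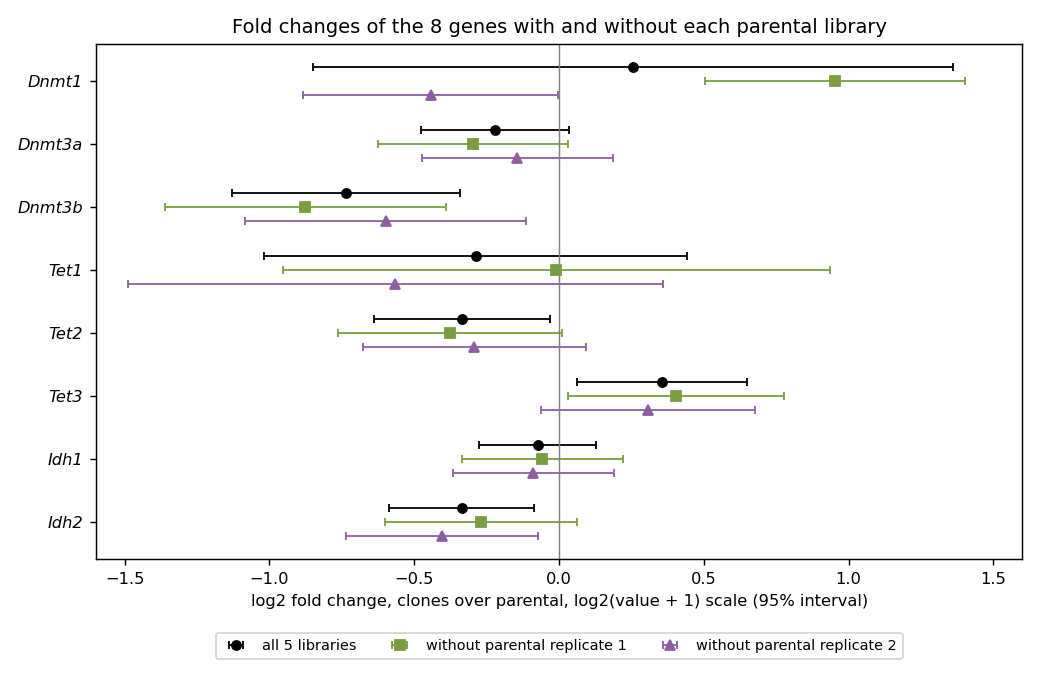
Log2 fold change of clones over parental libraries (horizontal axis, with 95% intervals from limma) for each gene, from all 5 libraries (black circles), without parental replicate 1 (green squares) and without parental replicate 2 (purple triangles). Dnmt1 lies at 0.95 without parental replicate 1 and at -0.44 without parental replicate 2, while the other 7 genes keep their direction.

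The low Dnmt1 value of parental replicate 2 was shared by a minority of genes. Parental replicate 2 was at least 2-fold below parental replicate 1 in 371 of the 13132 genes tested (2.83%) and at least 2-fold above it in 243 (1.85%). Only 147 genes lay further down than Dnmt1, 1.12% of those tested. In 338 of the 371 genes every clone was above parental replicate 2, and in 334 the clones' mean log2 level was nearer to parental replicate 1. The 371 genes were picked by their low value in parental replicate 2, so these counts partly follow from that choice. Among the lists described further below, the same gap was found in Mcm2, Mcm3 and Rrm1 of DNA replication, in Parp1, which senses DNA breaks, in the mitochondrial genes Cs, Sdhd and Shmt2, and in the cohesin gene Rad21. Rrm1, a ribonucleotide reductase subunit, was for instance at 1229, 1363 and 1159 in clones 12, 18 and 4, against 1942 and 639 in parental replicates 1 and 2. Parental replicate 2 is also the library with about 10 times the reads of the others. After its reads were thinned to the number in parental replicate 1, the Dnmt1 log2 fold change was 0.23, against 0.26 with all reads. Random thinning keeps the expected normalized read count of each gene, so it cannot show whether depth has a part in the gap. What sets this library apart for these genes was not tested.

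**Figure D3:**
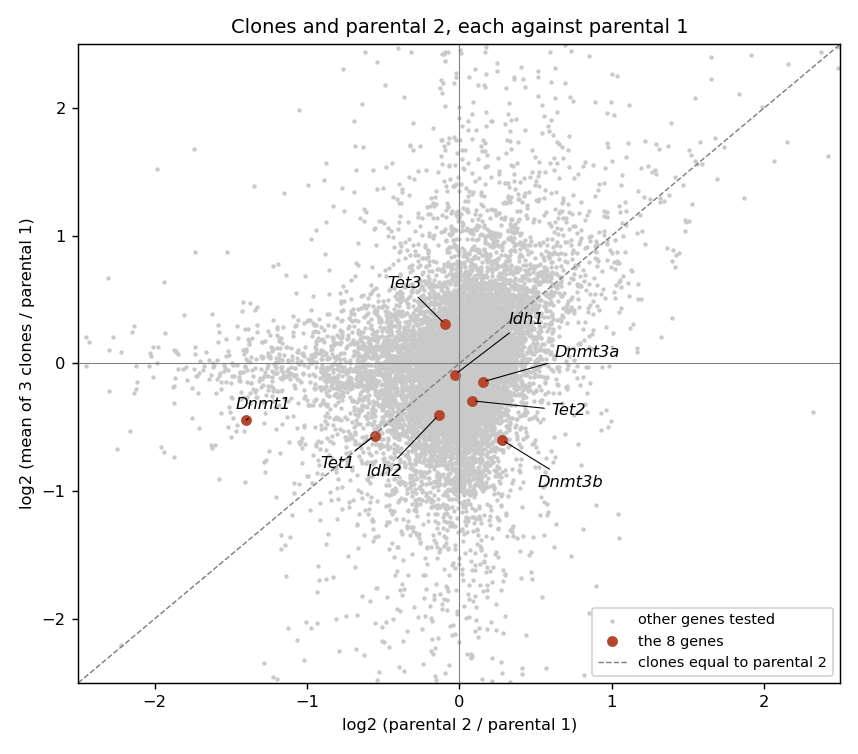
Mean log2 level of the 3 clones relative to parental replicate 1 (vertical axis) against the log2 ratio of parental replicate 2 to parental replicate 1 (horizontal axis), for all genes tested (grey) and the 8 genes (red); 472 genes lie outside the axes, which end at 2.5. Dnmt1 stands at -1.40 on the horizontal axis, and the other 7 genes lie between -0.55 and 0.28.

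The TET genes are the oxidizing arm of the pathway. Tet2 (ENSMUSG00000040943), the member most often mutated in blood cancers, was at 584, 499 and 552 in clones 12, 18 and 4, against 667 and 706 in the parental libraries. Every clone was lower, but the difference did not pass (log2 -0.33, 95% interval -0.64 to -0.03, adjusted p = 0.130, limma). Tet3 (ENSMUSG00000034832) showed the opposite order, at 902, 775 and 897 in the clones and 691 and 647 in the parental libraries. Every clone was higher, and this did not pass either (log2 0.36, 95% interval 0.06 to 0.65, adjusted p = 0.10, limma). Tet1 (ENSMUSG00000047146), best known from embryonic stem cells, rested on 85, 38 and 29 reads in clones 12, 18 and 4, against 69 and 476 in parental replicates 1 and 2. Its normalized read counts were 105, 60.2 and 59.5 in the clones and 107 and 72.7 in the parental libraries. The groups overlapped, and a change of the size seen in Dnmt3b would lie within the interval (log2 -0.29, 95% interval -1.02 to 0.44, adjusted p = 0.568, limma). The counting intervals of clones 12 and 18 did not overlap (83.6 to 129 and 42.6 to 82.7), though that of clone 4 overlapped both (39.8 to 85.4). Those of the parental libraries did not overlap (83.4 to 136 and 66.3 to 79.5). Some libraries of a group thus differed by more than counting error.

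Idh1 (ENSMUSG00000025950), which acts in the cytosol, varied least among the clones, with a highest value 1.10-fold above the lowest. It was at 3108, 2963 and 3266 in clones 12, 18 and 4, against 3306 and 3238 in the parental libraries, and the groups overlapped. The log2 fold change was -0.07 with a 95% interval of -0.28 to 0.13 (adjusted p = 0.604, limma). Idh2 (ENSMUSG00000030541), the mitochondrial enzyme, was at 5291, 5450 and 4464 in clones 12, 18 and 4, against 6684 and 6082 in the parental libraries. All clones were lower, with clone 4 lowest, but the difference did not pass (log2 -0.34, 95% interval -0.59 to -0.09, adjusted p = 0.0749, limma). The interval for Idh1 ends short of the Idh2 estimate, while the difference between both effects was tested only through their ratio.

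Ratios between family members within a library do not depend on how the libraries were scaled. They are ratios of normalized read counts, not corrected for gene length, so only their change between groups is read. In 6 pairs an exact permutation test (two-sided, 3 against 2 libraries) was run, for which 0.1 is the smallest p possible, so none could pass. Tet3 over Tet2 was 1.55, 1.55 and 1.62 in clones 12, 18 and 4 and 1.04 and 0.916 in the parental libraries, a log2 difference of 0.69 (exact p = 0.1, adjusted p = 0.3 over the 6 pairs). The clones lay close together, and all were above both parental libraries. Dnmt3b over Dnmt3a was 1.02, 0.967 and 0.810 in the clones and 1.27 and 1.39 in the parental libraries (log2 difference -0.52, exact p = 0.1, adjusted p = 0.3). Here too the groups did not overlap. Idh1 over Idh2 was 0.587, 0.544 and 0.732 in the clones and 0.495 and 0.532 in the parental libraries (log2 difference 0.26, exact p = 0.2, adjusted p = 0.4), with clone 18 just above parental replicate 2. Dnmt1 over Dnmt3a, Tet1 over Tet2 and Tet1 over Tet3 overlapped between the groups, with exact p = 0.6, 0.9 and 0.3 (adjusted p = 0.72, 0.9 and 0.45).

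**Figure D4:**
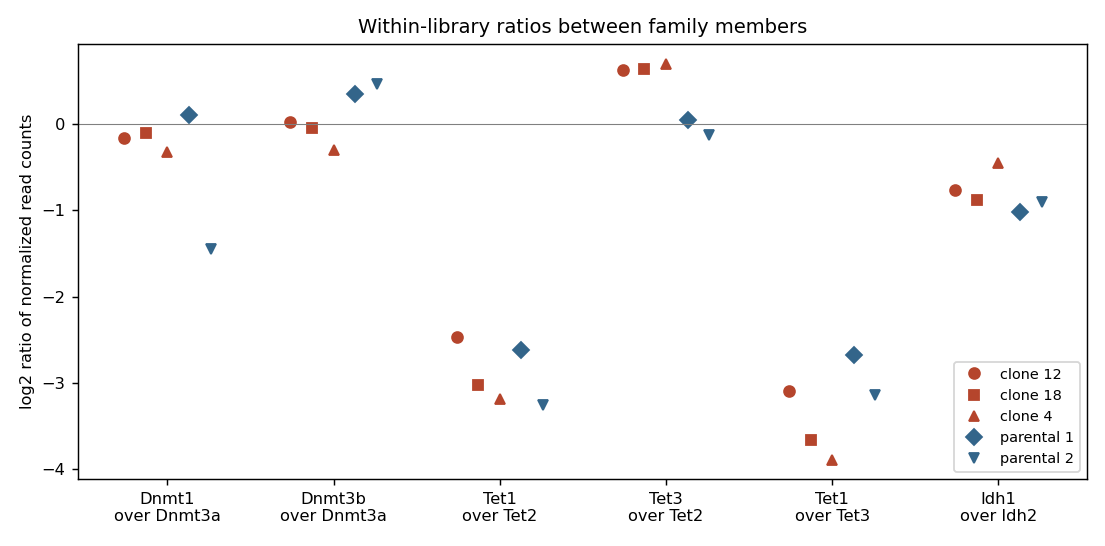
Log2 ratio of normalized read counts (vertical axis) for 6 pairs of family members in each clone (red) and parental library (blue). The clones lie above both parental libraries in Tet3 over Tet2, below them in Dnmt3b over Dnmt3a, and parental replicate 2 stands apart at -1.45 in Dnmt1 over Dnmt3a.

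Of 11 genes that work with the methyltransferases, 2 fell, 0 rose and 9 did not pass, with a median log2 fold change of -0.30. These 2 calls in 11 are close to the 16.0% called over all genes tested. Cdca7, which recruits the remodeller HELLS to chromatin, was at 1114, 1192 and 905 in clones 12, 18 and 4, against 1742 and 1546 in the parental libraries (log2 -0.63, SE 0.142, adjusted p = 0.0234, limma). Hells itself, needed for methylation of repeats, was at 748, 751 and 525 in the clones and 1158 and 1039 in the parental libraries (log2 -0.72, SE 0.179, adjusted p = 0.0334, limma). Uhrf1, which brings DNMT1 to newly replicated DNA, was at 3735, 4648 and 2353 in the clones, against 6429 and 7006 in the parental libraries. Its clones were all lower and spread widely, and it did not pass (log2 -0.96, adjusted p = 0.0829, limma). Neither the Cdca7 nor the Hells call held without clone 12 or without either parental library.

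Among readers of methylated CpG, 2 of 8 tested genes rose, 0 fell and 6 did not pass, with a median log2 fold change of 0.17, where 7.51% of all genes tested rose and 8.49% fell. Zbtb38, a zinc finger protein that binds methylated DNA, was at 1933, 1663 and 2218 in clones 12, 18 and 4, against 1251 and 1286 in the parental libraries (log2 0.60, SE 0.133, adjusted p = 0.0214, limma). Its relative Zbtb4 was at 156, 162 and 152 in the clones, against 65.3 and 108 in the parental libraries (log2 0.89, SE 0.237, adjusted p = 0.0415, limma). Zbtb38 did not pass without clone 12 or either parental library, and Zbtb4 did not pass in any fit that left out a clone or parental replicate 1, nor with edgeR (adjusted p = 0.0509) or DESeq2 (adjusted p = 0.0507). Mbd4, a glycosylase that binds methylated CpG, was at 257, 250.4 and 217 in clones 12, 18 and 4, against 353 and 346 in the parental libraries. It was lower in every clone and just missed the threshold (log2 -0.53, adjusted p = 0.0537, limma), which it passed with TMM scaling (adjusted p = 0.0476) and with DESeq2 (adjusted p = 0.0286).

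Downstream of TET oxidation, base excision repair replaces the modified base. Of the 16 genes in the list of TET partners and base excision, 12 could be tested, of which 3 fell, 0 rose and 9 did not pass, with a median of 0.12 (log2). Over all genes tested 16.0% were called. Neil3, a DNA glycosylase, was at 188, 195 and 105 in clones 12, 18 and 4, against 385 and 418 in the parental libraries (log2 -1.35, SE 0.281, adjusted p = 0.0186, limma). Lig3, a DNA ligase of base excision repair, averaged 2758 ± 239 in the clones (SD, n = 3) and 3918 ± 321 in the parental libraries (SD, n = 2; adjusted p = 0.0175, limma). Gadd45b, a stress gene linked to demethylation, was low throughout, at 17.2, 7.93 and 20.5 in the clones and 49.7 and 46.7 in the parental libraries (adjusted p = 0.0413, limma). Tdg, the glycosylase that removes the TET products, was at 2431, 2241 and 2423 in the clones and 2512 and 3005 in the parental libraries (adjusted p = 0.214, limma). Without parental replicate 2, none of the 3 falls passed. Without parental replicate 1, Lig3 fell, while Parp1, Gadd45a and Cxxc5 rose (log2 1.02, 0.66 and 0.67). The calls in this list thus depend on the parental library used.

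Among genes of 2-oxoglutarate metabolism 23 of 26 did not pass, 2 fell and 1 rose, with a median log2 fold change of 0.05. The 3 calls in 26 are a smaller share than the 16.0% called over all genes tested. Bcat2, a mitochondrial aminotransferase that uses 2-oxoglutarate, was at 2376, 2674 and 1990 in clones 12, 18 and 4, against 3561 and 3915 in the parental libraries (log2 -0.68, SE 0.133, adjusted p = 0.0142, limma). Ogdh, the dehydrogenase that consumes 2-oxoglutarate in the citric acid cycle, averaged 6476 ± 700 in the clones (SD, n = 3) and 8906 ± 365 in the parental libraries (SD, n = 2; adjusted p = 0.0222, limma). Got1, the cytosolic aspartate aminotransferase, averaged 369 ± 9.73 in the clones and 258 ± 10.9 in the parental libraries (adjusted p = 0.0450, limma). The NAD-dependent Idh3a, Idh3b and Idh3g did not pass (adjusted p = 0.851, 0.398 and 0.283). Without parental replicate 2 none of the 3 calls held. Without parental replicate 1, Cs, Sdhd and Glud1 rose and Bcat2 fell.

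In the cycle that supplies the methyl donor S-adenosylmethionine, 12 of 13 genes did not pass, and the median was -0.11 (log2). The single call in 13 is below the background of 16.0%. The exception was Ahcyl1, at 3063, 3010 and 3040 in clones 12, 18 and 4, against 4857 and 4665 in the parental libraries. It was 1.57-fold lower (log2 -0.65, SE 0.0799, adjusted p = 0.00239, limma), and the call held in all 15 alternatives. Ahcyl1 is related to adenosylhomocysteinase but is mainly known as a regulator of inositol trisphosphate receptors. Ahcy, the adenosylhomocysteinase itself, and Mat2a, which makes S-adenosylmethionine, did not pass (log2 -0.11 and 0.0022, adjusted p = 0.598 and 0.988, limma).

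Maintenance methylation is coupled to DNA replication. Of 23 replication genes tested, 10 fell, where 8.49% of all genes tested did, 0 rose and 13 did not pass, with a median log2 fold change of -0.57. Pola1, which encodes the DNA-synthesizing subunit of polymerase alpha, was at 451, 498 and 361 in clones 12, 18 and 4, against 946 and 916 in the parental libraries (log2 -1.10, adjusted p = 0.00497, limma). Tk1, thymidine kinase, was at 334, 480 and 367 in the clones, against 853 and 848 in the parental libraries (log2 -1.13, adjusted p = 0.00624, limma). Pole and Mcm7 fell as well (log2 -0.85 and -0.89, adjusted p = 0.0101 and 0.0141, limma). Without parental replicate 2, 5 genes fell, among them Rrm1. Without parental replicate 1, 4 fell, while Mcm2, Mcm3 and Rrm1 rose (log2 0.92, 1.00 and 0.96). Without clone 12, 4 fell. The summed level of the 23 genes was 26191 to 35101 in the clones and 41988 to 48581 in the parental libraries, lower in the clones as Dnmt3b, Hells and Cdca7 were, and its part in their values was not tested.

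Other genes recurrently mutated in NPM1c leukaemia were also looked at. Of 8 tested, 3 fell, 0 rose and 5 did not pass, with a median of -0.32 (log2). Flt3, a cytokine receptor of progenitors, was at 3755, 4185 and 3496 in clones 12, 18 and 4, against 5446 and 5521 in the parental libraries (log2 -0.53, SE 0.0977, adjusted p = 0.0117, limma). Nras and the cohesin subunit Smc3 were lower by 1.45-fold and 1.30-fold (adjusted p = 0.0234 and 0.0346, limma). None of the 3 calls held without clone 12 or without parental replicate 2. Without parental replicate 1, Flt3 fell and Rad21 rose (log2 -0.54 and 0.89), while Nras and Smc3 did not pass. Of all genes tested 8.49% fell.

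**Figure D5:**
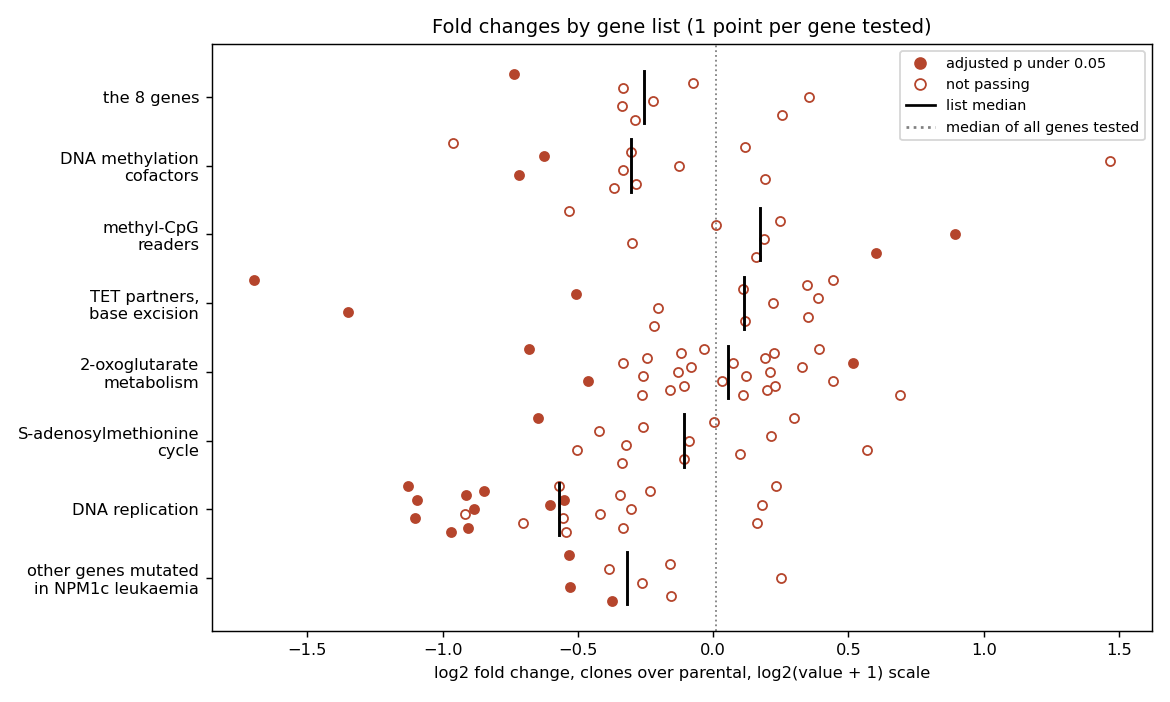
Log2 fold change of clones over parental libraries (horizontal axis) for the genes of each list, 1 point per gene tested, filled where the adjusted p was under 0.05; black lines are list medians and the dotted line is the median of all genes tested, 0.01. DNA replication has the lowest median, -0.57, and the 8 genes have 1 filled point, Dnmt3b.

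The genes whose profile over the 5 libraries was most like that of Dnmt3b were Whsc1, Prc1 and the predicted gene Gm5593. Likeness was measured as the root mean square difference of the centred log2 profiles, which was 0.0366, 0.0416 and 0.0440, and is a description only. Whsc1, a methyltransferase of histone H3, was at 5710, 5952 and 4325 in clones 12, 18 and 4, against 8216 and 9265 in the parental libraries. Prc1, a microtubule-bundling protein of cytokinesis, was at 3607, 3830 and 2831 in the clones, against 5455 and 6310 in the parental libraries. In each of them clone 4 was lowest and parental replicate 2 highest, as in Dnmt3b, which follows from picking the nearest profiles.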

How the data were processed

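Per the labels' protocols, RNeasy micro was used for extraction and NEBNext Ultra II for the mouse libraries. Tools listed in the submitters' processing notes are RSEM, DESeq2 and STAR 2.6.1, beside the builds mm9 and hg19, with no roles; annotation, strand and settings were not given in the sources used here. The mouse tables hold a signal value per Ensembl gene that the authors deposited: reads divided by 1 size factor per library. All values above 0 (100%) were whole multiples of the library's smallest value, within 0.01, so reads were recovered.

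The test was limma 3.58.1 (R 4.3.3) with trend and robust moderation on log2(value + 1), for the 13132 genes with a mean of at least 10, with Benjamini-Hochberg adjustment. Fold changes on this scale understate changes of genes with few reads. Counting intervals are exact 95% Poisson intervals of recovered reads. P-values measure the spread between these libraries, which may be technical for the parental pair. Tests were checked on simulated data. On recovered reads edgeR 4.0.16 called 2265 of 12903 genes and DESeq2 1.42.0 called 2677. Lists were described by counts and medians. The genes, lists and alternatives were chosen with earlier results of these data known. Named were the 8 genes, up to 4 called genes per list by smallest p, and the 3 profiles nearest to a called gene. Uhrf1, Mbd4, Tdg, Emr1, F13a1, Ccr2, Mpo, Ctsg, Cpa3, Hdc, Ebf1, Ahcy and Mat2a were chosen after their values were seen. So were the Idh3 genes, the genes called without parental replicate 1 and the genes low in parental replicate 2. No mouse sequence is printed, and 1 marker list is not reported here.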

Additional observations from a re-analysis of the deposited data

How the results depend on the processing

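No paired analysis was possible because clones 12, 18 and 4 share no replicate number with parental replicates 1 and 2. Of 15 alternatives, Dnmt3a, Tet1, Tet2, Tet3, Idh1 and Idh2 kept direction and stayed without a call in all, and Dnmt3b kept its direction in all and its call in 11. With every gene that had a read, Dnmt3b (log2 -0.74, adjusted p = 0.0728) did not pass, 0 of the 8 genes were called, and 0 list genes rose and 8 fell. Without trend and robust moderation Dnmt3b (log2 -0.74, adjusted p = 0.0856) did not pass, 0 of the 8 genes were called, 1 list gene rose and 4 fell, and 651 genes in all rose and 620 fell. In fits that each left out 1 library, 468 to 1230 genes rose and 400 to 1126 fell, against 986 and 1115 with all; list genes that rose numbered 0 to 11 and those that fell 6 to 22, against 3 and 21. The 8 genes had 0 to 2 calls, Dnmt3b ranged from -0.88 to -0.58 and Dnmt1 from -0.44 to 0.95, called without parental replicate 1. Of the log2 ratios, Dnmt1 over Dnmt3a ranged from -0.30 (without parental replicate 2) to 1.25, and Tet1 over Tet2 from -0.27 to 0.37, negative without parental replicate 2 and, at -0.17, without clone 12. Of the 24 calls in the lists, those of Pola1, Tk1 and Ahcyl1 held in all 15 alternatives, and 21 were lost in at least 1. A lone parental library was assumed to vary as the clones do. Tet1 had the fewest reads of the 8 genes, 29 to 85 in the clones, and its intervals are wide.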
